A study of Solanum lycopersicum x Solanum pennellii and Solanum lycopersicum with 17 samples.

Results

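RAN2A and the related tomato genes RAN1 and RAN2B encode Ran, a small GTPase, and are followed here across carpels of 3 introgression lines and their cultivated parent. The members are the probe sets whose gene symbol in the platform annotation is RAN followed by a digit and at most 2 further characters. There are 3 of them, 1 for each gene, among 909 tested probe sets with a symbol and 10101 tested in all, and each passed, as no filter on dim values was used. RAN1 and RAN2B entered by symbol alone. RAN2A was chosen by its measured values in IL-1_1 and IL-1_4, where it was called lower than in M82, so its differences that involve either line are given as a description, with no test.

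Total RNA was taken from carpels of greenhouse tomato (Solanum lycopersicum) 7 days after pollination and hybridised to an Affymetrix tomato array, 1 sample on each of 17 arrays. IL-1_1 was represented by 4 arrays, IL-1_4 by 3 and IL-2_3 by 4, and their cultivated parent M82 by 6. An introgression line carries a segment of a wild tomato chromosome, here of S. pennellii, in an otherwise cultivated background, and the first number in its name is that of the chromosome. The labels name neither the borders of a segment nor whether a plant carried it in 1 or both copies, and no other treatment separated the groups. Nothing states that replicates came from separate plants, so p-values measure the spread between these samples, which may be technical. Whether any Ran gene lies in an introgressed segment was not analysed here.

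Ran works as a switch for traffic through the nuclear pore. It is loaded with GTP by an exchange factor on chromatin and hydrolyses that GTP outside the nucleus with the help of RanGAP and RanBP1, and the resulting difference tells importins and exportins where to release or bind cargo. In dividing cells Ran also guides spindle assembly and the rebuilding of the nuclear envelope, and a young tomato ovary after pollination is a tissue of many divisions. Plants often carry several Ran genes whose proteins are closely alike.

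The RAN2A probe set was far lower in IL-1_4 than in any other group. Its log2 values were 10.27, 10.51 and 10.28 in the IL-1_4 arrays, against a lowest of 13.13, a median of 13.43 and a highest of 13.56 in the 6 M82 arrays. The groups did not overlap, and the gap between the highest IL-1_4 array and the lowest M82 array was 2.63. RAN2A averaged 10.35 ± 0.13 in IL-1_4 (SD, n = 3) and 13.38 ± 0.15 in M82 (SD, n = 6), a log2 change of -3.03 ± 0.12 (SE) with a 95% interval of -3.28 to -2.78. On a linear scale the IL-1_4 value was 12.2% of the M82 value, with an interval of 10.3% to 14.6%. All 3 IL-1_4 arrays remained well above the dim end of the arrays, whose lower quartile of probe sets lay between 7.77 and 7.99.

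Among all 10101 probe sets, 10 had a more negative change than RAN2A in IL-1_4 against M82, and 2 of those with a symbol did. These are MTS1, a monoterpene synthase gene, and opr2, of the oxophytodienoate reductase family. The median change over all probe sets was 0.02. A probe set was called at a limma adjusted p under 0.05, and 0.644% of all probe sets were called in this comparison, 1 of the 3 Ran probe sets among them. That 1 is RAN2A, whose value led to its choice, and nothing is read from the count. A probe set value reads the abundance of a transcript and its match to the array's short probes together, and for a line with wild chromatin the 2 cannot be told apart in these data. Nor can fewer cells that express a gene be told from less RNA per cell, since whole carpels were used.

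**Figure D1:**
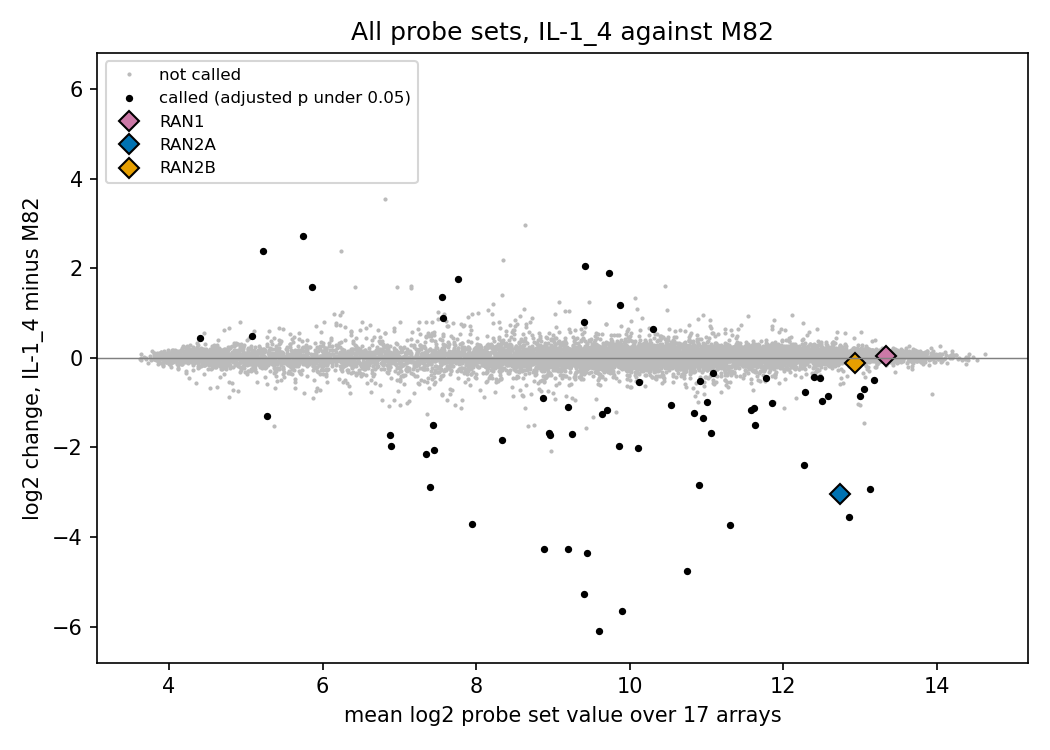
Log2 change of every tested probe set in IL-1_4 against M82 (vertical axis) by its mean log2 value over the 17 arrays (horizontal axis). Black points were called at an adjusted p under 0.05, and diamonds mark the Ran probe sets: RAN2A lies at -3.03, while RAN1 and RAN2B lie at 0.04 and -0.12.

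RAN1 and RAN2B lay close to their M82 levels in the same IL-1_4 arrays. RAN1 was measured at 13.39, 13.44 and 13.45 in IL-1_4, within the M82 range of 13.32 to 13.50. Its change was 0.04 ± 0.06 (SE; 95% interval -0.10 to 0.18), and it was not called. RAN2B was measured at 12.58, 13.06 and 13.06 in IL-1_4, against a lowest of 12.71, a median of 13.06 and a highest of 13.15 in M82. Replicate 1 of IL-1_4 stood below every M82 array for RAN2B, and the other two IL-1_4 arrays lay inside the M82 range. The change of RAN2B was -0.12 ± 0.12 (95% interval -0.37 to 0.14), it was not called, and its sign turned without IL-1_4 replicate 1 (0.05). The intervals of both genes leave out any change near the size seen at RAN2A. The within-array difference between RAN2A and the mean of RAN1 and RAN2B was -2.81 ± 0.14 in IL-1_4 (SD, n = 3) and 0.18 ± 0.09 in M82 (SD, n = 6), so that IL-1_4 minus M82 came to -2.99 log2 units.

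**Figure D2:**
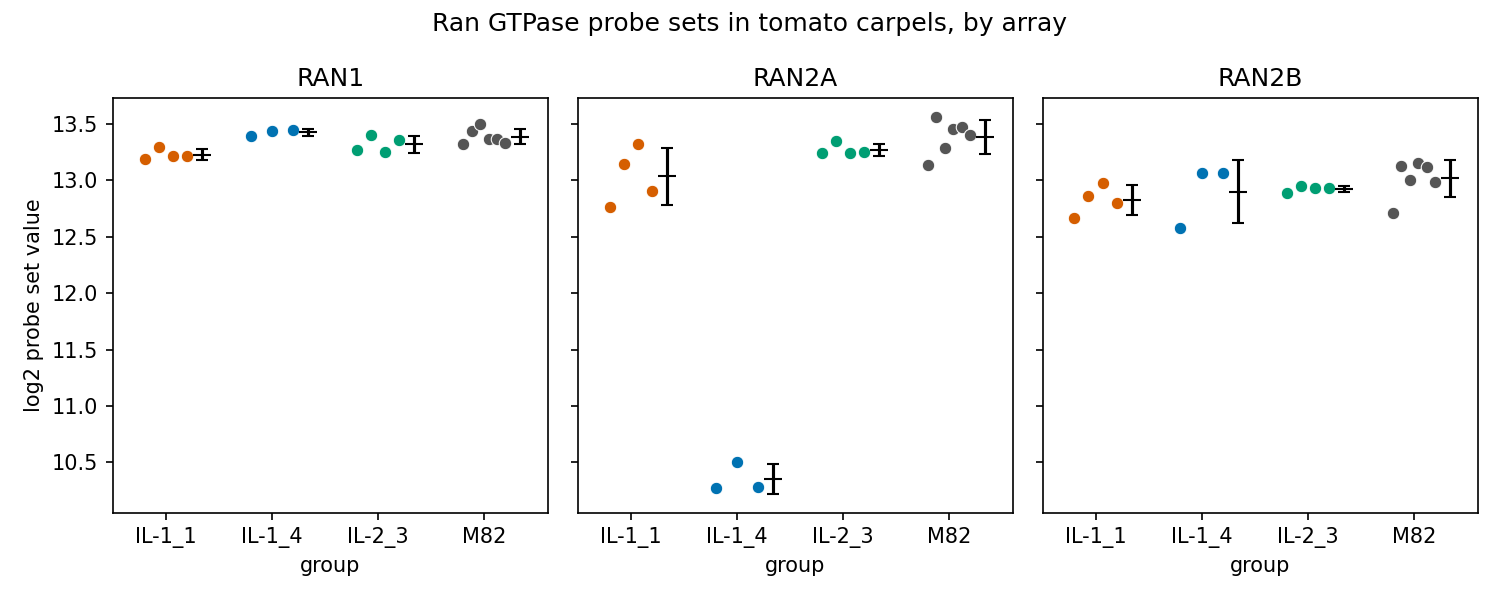
Log2 probe set value (vertical axis) of RAN1, RAN2A and RAN2B in each array of IL-1_1, IL-1_4, IL-2_3 and M82 (horizontal axis), with the mean and SD of each group as bars beside the points. The RAN2A points of IL-1_4 lie between 10.27 and 10.51, and all other Ran points lie at 12.58 or above.

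Set against the other lines, the IL-1_4 value of RAN2A stood apart to a like degree. RAN2A was higher in IL-1_1 than in IL-1_4 by 2.68 ± 0.13 (SE), and IL-1_4 minus IL-2_3 came to -2.92 ± 0.13. The first of these had 17.6% of all probe sets called and the second 1.54%, with 1 of the 3 Ran probe sets called in each, again RAN2A, as a description only. RAN1 and RAN2B were called in neither pair. RAN1 gave -0.20 ± 0.07 in IL-1_1 minus IL-1_4 (limma adjusted p = 0.058) and 0.11 ± 0.07 in IL-1_4 minus IL-2_3 (0.698). The IL-1_1 and IL-1_4 arrays of RAN1 did not overlap, and with each array centred on its median that difference was -0.23 and passed the threshold (adjusted p = 0.0354), as it did without IL-1_1 replicate 2 (0.0481). With arrays left out singly, 606 to 2163 probe sets were called in that pair, against 1776 in the main fit. RAN2B gave -0.07 ± 0.13 (adjusted p = 0.689) and -0.02 ± 0.13 (0.97).

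In IL-1_1, the other line with a chromosome 1 segment, all 3 Ran probe sets had lower means than in M82, by small amounts. The median change over all probe sets was -0.025 there. Of the 10101 probe sets, 3289 had a more negative change than RAN1, 2926 than RAN2B and 1543 than RAN2A, so nothing is read from the shared direction. RAN2A had values of 12.76, 13.15, 13.32 and 12.90 in IL-1_1, and the M82 arrays began at 13.13, so the groups overlapped. RAN2A averaged 13.03 ± 0.25 in IL-1_1 (SD, n = 4) and 13.38 ± 0.15 in M82 (SD, n = 6), a change of -0.35 ± 0.11 (SE; 95% interval -0.58 to -0.12). The IL-1_1 value was 78.4% of that of M82. It was the single Ran call of the 3 in a comparison where 12.2% of all probe sets were called, and it was part of the reason for the choice. As a description of how that value hung on the arrays, the change ran from -0.447 to -0.26 with 1 array left out in turn. The call did not hold in every such fit, and nothing is read from it. RAN1 had 13.19, 13.30, 13.22 and 13.21 in IL-1_1, all below the lowest M82 array at 13.32. Its change of -0.16 ± 0.06 was not called (limma adjusted p = 0.0796), although it passed with each array centred on its median (-0.19, 0.0465) and without M82 replicate 1 (-0.17, 0.042). In the last of these fits 3079 of the 10101 probe sets were called, against 1233 in the main fit, so little is read from that pass. RAN2B had 12.67, 12.86, 12.98 and 12.80 in IL-1_1, overlapping the M82 range, and its change of -0.19 ± 0.11 was not called (adjusted p = 0.224; 95% interval -0.42 to 0.04).

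The IL-1_1 arrays lay toward the low end of the main axis of variation among the arrays. The first principal component over all probe sets held 45.7% of the variance, and IL-1_1 arrays scored -68.1 to -14.6 on it, against -33.9 to 35.6 in M82. Over the 14 arrays other than those of IL-1_4, the level of RAN2A ran with that score at a Pearson r of 0.877 (Spearman rho 0.811; 0.735 without the 2 arrays farthest out on the axis), and that of RAN2B at 0.874 (0.811; 0.787). For RAN1 r was 0.676 (0.736; 0.469). These arrays share groups and the axis itself, and the values are a description. Array scores on the leading axis of within-group residuals were also added to the model. The IL-1_1 minus M82 change was then -0.19 ± 0.09 for RAN2A and -0.05 ± 0.10 for RAN2B, against -0.14 ± 0.06 for RAN1. The scores were taken from values that kept the differences between groups. This covariate can therefore take out part of a line's own difference. Smaller changes and lost calls under it do not show that a difference came from the axis. That axis covariate left the IL-1_4 minus M82 change of RAN2A at -3.06 ± 0.09. The lowest array on the first component was replicate 1 in IL-1_1, replicate 4 in IL-2_3 and replicate 1 in M82. Without those 3 arrays, RAN2A changed by -0.31 in IL-1_1 and -3.08 in IL-1_4.

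In IL-2_3, the line with a chromosome 2 segment, no Ran probe set was called. RAN2A had 13.24, 13.35, 13.24 and 13.25 in IL-2_3, all inside the M82 range. RAN2A averaged 13.27 ± 0.05 in IL-2_3 (SD, n = 4) and 13.38 ± 0.15 in M82 (SD, n = 6). The change of -0.11 ± 0.11 (limma adjusted p = 0.999) has a 95% interval of -0.34 to 0.12, which leaves room for a modest difference in either direction. RAN1 gave -0.07 ± 0.06 and RAN2B -0.09 ± 0.11, with the same adjusted p of 0.999, and 0.901% of all probe sets were called. The within-array difference between RAN2A and the other two Ran probe sets was lower in IL-2_3 by 0.03 on average, which an exact two-sided permutation test over 210 splits did not separate from the array spread (p = 0.481). Between IL-1_1 and IL-2_3, where 4.87% of all probe sets were called, neither RAN1 nor RAN2B was called by limma or had an unadjusted p under 0.05. RAN1 gave -0.09 ± 0.06 there (adjusted p = 0.399) and RAN2B -0.10 ± 0.12 (0.63), while RAN2A, as a description, gave -0.24 ± 0.12.

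In order of its level, RAN2A was thus lowest in IL-1_4 (10.35), then IL-1_1 (13.03), IL-2_3 (13.27) and M82 (13.38). The neighbours IL-1_1 and IL-2_3 overlapped, as did IL-2_3 and M82, and only the step from IL-1_4 to IL-1_1 was a gap between arrays, of 2.26. RAN1 kept to a narrow band, from 13.23 in IL-1_1 to 13.43 in IL-1_4. RAN2B ran from 12.83 in IL-1_1 to 13.02 in M82.

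**Figure D3:**
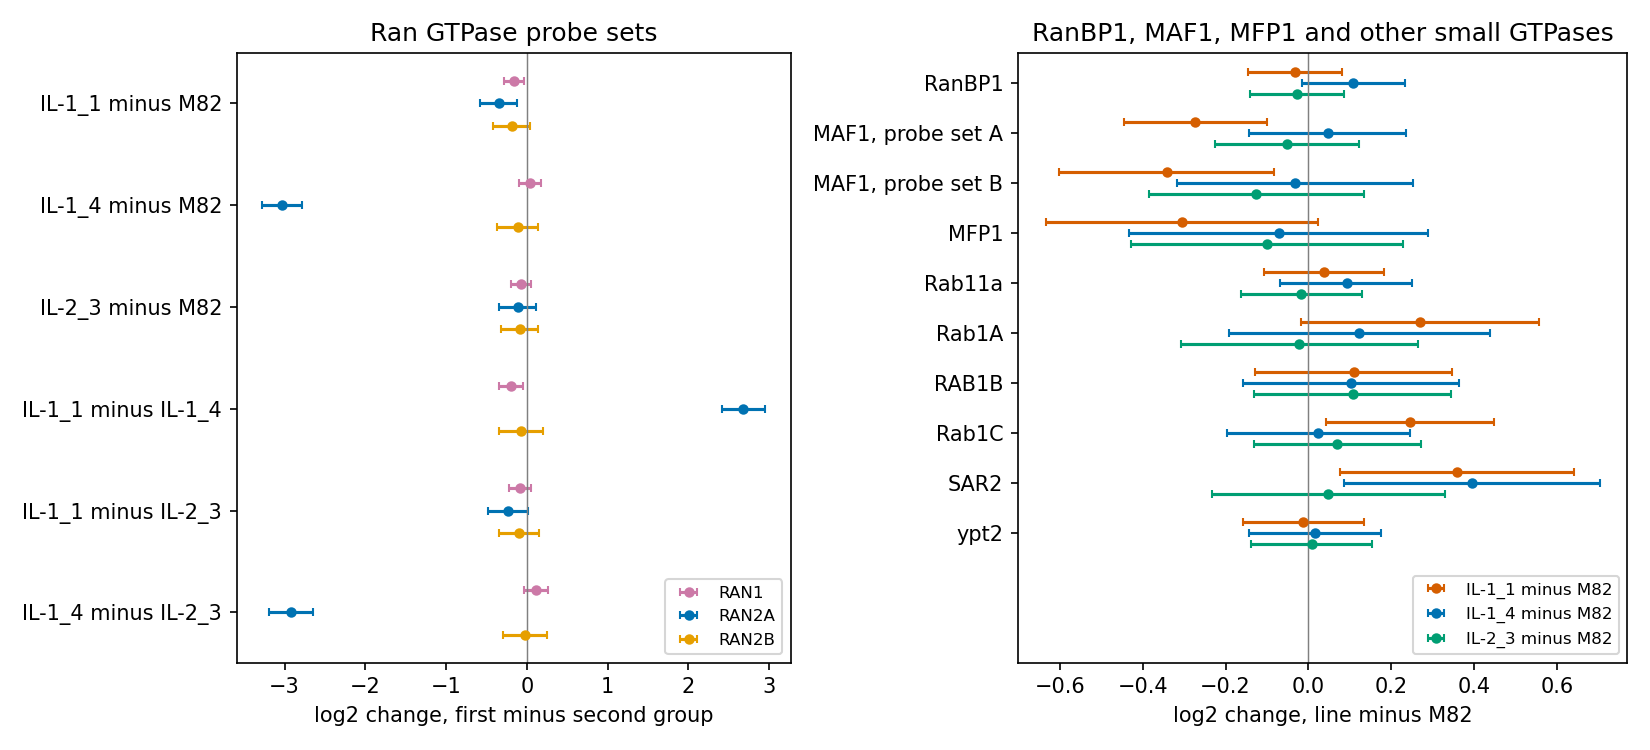
Log2 changes (horizontal axes) with 95% intervals of the limma fit. On the left are the 3 Ran probe sets in all 6 comparisons. The RAN2A values of the 3 comparisons with IL-1_4 share their IL-1_4 arrays and are a description, since RAN2A was chosen by its values there. On the right are the 4 probe sets of RanBP1, MAF1 and MFP1 and the 6 of other small GTPases in each line against M82, with changes between -0.34 and 0.39. Probe sets A and B of MAF1 are the bright and the dim one.

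The steadiness of the Ran probe sets differed too. The pooled SD within groups was 0.061 for RAN1, smaller than that of all but 0.98% of probe sets, and 0.163 for both RAN2A and RAN2B, against a median of 0.224 over all. That rank was taken over probe sets of all levels. Those as bright as the Ran probe sets were not compared apart, so it is not read as a trait of Ran genes. In IL-2_3 the SD of RAN2A was 0.052 and that of RAN2B 0.025. In IL-1_1 the SD of RAN2A was 0.25, above the median of 0.221 over all probe sets in that group. In IL-1_4 it was RAN2B that spread most, at 0.281, a larger SD than 89.8% of probe sets showed there, and this came from replicate 1.

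RAN2A and RAN2B deviated from their group means together. In M82, replicate 1 was the lowest array for both genes, at 13.13 and 12.71. In IL-1_1, replicate 1 was likewise lowest for both (12.76 and 12.67) and replicate 3 highest (13.32 and 12.98). Over the 17 arrays, the deviations of the 2 genes from their group means had a Pearson r of 0.725 and a Spearman rho of 0.716 (r of 0.689 without the 2 arrays farthest out for RAN2A). Without the IL-1_4 arrays r was 0.88 (n = 14). In IL-1_4, the deviations of replicate 1 were -0.08 for RAN2A and -0.33 for RAN2B, the same way in unequal size. Replicate 3 of IL-1_4 went opposite ways, at -0.07 for RAN2A and 0.16 for RAN2B. RAN1 followed either gene less closely, at r of 0.324 with RAN2A and 0.385 with RAN2B. Arrays supply both values of a pair, and probes of related transcripts can pick up each other's signal, so these values are a description of the arrays.

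**Figure D4:**
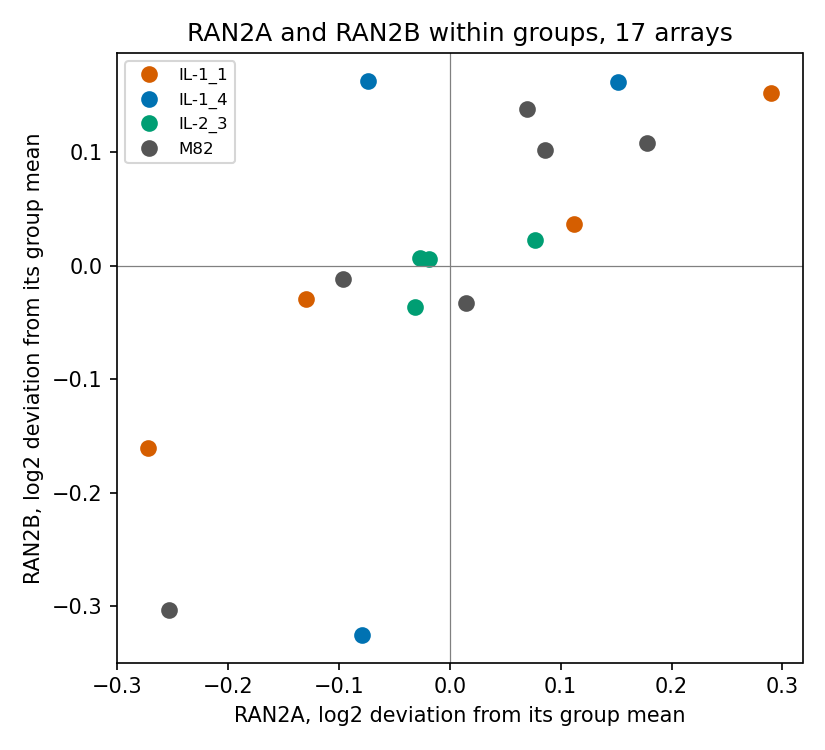
Deviation of RAN2B (vertical axis) against that of RAN2A (horizontal axis) from their group means, in log2 units, 1 point per array, coloured by group. Points rise together along the diagonal (r = 0.725, n = 17), apart from 1 IL-1_4 array at the bottom and 1 at the upper left.

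RanBP1 is the 1 gene on the nuclear transport list whose protein is known to bind Ran. The list held 4 probe sets: RanBP1, MAF1 with 2, and MFP1, a filament-like DNA-binding protein to which MAF1 attaches. Of these, 0 were called in IL-1_4 against M82, with changes from -0.07 to 0.11 and a median of 0.01; of all probe sets 0.644% were called, and none of the 4 had an unadjusted p under 0.05 by limma. RanBP1, which helps RanGAP to act on Ran-GTP, had 13.65, 13.68 and 13.69 in IL-1_4 and 13.46 to 13.63 in M82. Its groups did not overlap, but the gap was 0.02 and the change of 0.11 ± 0.06 was not called. RanBP1 gave -0.14 ± 0.06 in IL-1_1 minus IL-1_4 and 0.14 ± 0.06 in IL-1_4 minus IL-2_3, again without overlap. Both had an unadjusted p under 0.05 by limma, and neither was called (adjusted p = 0.12 and 0.567). How often groups fail to overlap among all probe sets was not counted, so nothing is read from these gaps. In IL-1_1 RanBP1 changed by -0.03 ± 0.05 and in IL-2_3 by -0.03 ± 0.05.

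MAF1, a small protein of the nuclear envelope that shares a domain with plant RanGAP, was the gene of that list with a call. Its bright probe set had 12.54, 12.66, 12.62 and 12.44 in IL-1_1, against 12.63 to 13.03 in M82. It fell by 0.27 ± 0.08 in IL-1_1 (limma adjusted p = 0.042), 1 of the 4 in a comparison where 12.2% of all probe sets were called. The call was lost without any 1 of M82 replicates 2, 3, 4 and 5 or IL-1_1 replicates 1, 3 and 4 (adjusted p up to 0.134), with the axis covariate (-0.17, adjusted p = 0.199), with the replicate number as a block (-0.25, 0.0909), with only IL-1_1 and M82 in the fit (0.116) and without M82 replicate 5 and IL-1_4 replicate 1, which were highest in the difference between 3-prime and 5-prime controls (0.0998). The dim MAF1 probe set, near 5 on the log2 scale, changed by -0.34 ± 0.12 and was not called (0.0727). It passed without M82 replicate 1 (-0.42, adjusted p = 0.0127) and without the 3 arrays named above (-0.40, 0.0408). In each of these fits more probe sets were called in all than in the main fit, as counted in the closing section. The bright MAF1 probe set was also lower in IL-1_1 than in IL-1_4, at -0.32 ± 0.10 (limma adjusted p = 0.036). That call was lost with the axis covariate (-0.20, adjusted p = 0.188), the replicate number as a block (0.0518), without M82 replicate 5 and IL-1_4 replicate 1 together (0.0719), and without any 1 of the IL-1_4 arrays or of IL-1_1 replicates 1 and 4 (up to 0.109). In IL-2_3 against M82, 0 of the 4 probe sets were called or had an unadjusted p under 0.05, beside 0.901% of all probe sets called, and the median change was -0.08.

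Other small GTPases, which direct vesicle traffic, gave no call in any of the 6 comparisons, in which between 0.644% and 17.6% of all probe sets were called, so for a list of this length little is read from it. The list held 6 probe sets: Rab1A, RAB1B, Rab1C and ypt2 of the early secretory route or named as such GTPases, Rab11a of later membrane traffic, and SAR2, whose relatives start vesicle budding at the endoplasmic reticulum. In IL-1_4 against M82 all 6 changes were positive, from 0.02 to 0.39 with a median of 0.10, against -3.03 for RAN2A. The largest was that of SAR2, with 11.70, 11.45 and 11.42 in IL-1_4, all above the highest M82 array at 11.38. Its change of 0.39 ± 0.15 was not called (limma adjusted p = 0.953). SAR2 gave a like value in IL-1_1 (0.36 ± 0.13, adjusted p = 0.0812), where its arrays also lay above all of M82, and the axis covariate brought that over the threshold (0.50, 0.0462). Rab1C changed by 0.24 ± 0.10 in IL-1_1 (0.0919), and passed without IL-1_1 replicate 1 (0.34, 0.0455) and without the 3 arrays named above (0.35, 0.0174). In the last of these fits, too, more probe sets were called in all than in the main fit. These 3 lines share their M82 arrays, so like values in several lines are not separate evidence. At an unadjusted p under 0.05, limma had SAR2 alone in IL-1_4, SAR2 and Rab1C in IL-1_1, and none in IL-2_3.

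Genes of carpel, ovule and early fruit were set beside the tissue label. AG1, the tomato AGAMOUS gene of carpel identity, TAGL1 and AGL11, related MADS-box genes, and fsm1, a gene of early fruit growth, averaged 10.61 to 12.62 in every group. That is above the lower quartile of the arrays, as most probe sets are. Of the green tissue genes, PSBO averaged 13.11 to 13.21, CAB6A 12.71 to 12.89, CAB4 11.93 to 13.04 and CAB5 7.06 to 7.9. These levels therefore do not tell carpel from other green tissue. The titles of the M82 samples carry the words Seed Control, which the labels do not explain, while their tissue is given as carpel. The 1 probe set on the array from the list drawn up for seed, Man4, averaged 4.39 in IL-1_1, 4.31 in IL-1_4, 4.33 in IL-2_3 and 4.31 in M82. It lay below that quartile in all 4. No sample of known seed tissue was measured, and whether Man4 marks seed was not checked. This low value therefore does not tell whether seed tissue was present. In IL-1_4 against M82, 0 of these 4 and 0 of 4 green tissue probe sets (PSBO, CAB4, CAB5 and CAB6A) were called by limma or had an unadjusted p under 0.05, beside 0.644% of all probe sets called. In IL-1_1 against M82, where 12.2% of all probe sets were called by limma, 1 of the 4 carpel genes was called. It was fsm1, higher by 2.01 ± 0.59 (adjusted p = 0.0393). The M82 arrays of fsm1 ran from 8.64 to 12.73 and overlapped those of IL-1_1 (12.38 to 13.04). AG1 had an unadjusted p under 0.05 there (0.65 ± 0.27, adjusted p = 0.114). These were the same arrays in which the Ran means were lower, and the part of fsm1 in those values was not tested. Among genes of constant use, ACT by its symbol changed by -0.04 ± 0.06 and TUB by 0.09 ± 0.14 in IL-1_4. In IL-1_1 ACT changed by 0.01 ± 0.05 and TUB by -0.30 ± 0.13 (limma adjusted p = 0.116). In IL-2_3 against M82 0 of the 4 carpel genes were called by limma, beside 0.901% of all probe sets. TAGL1 and AG1 had an unadjusted p under 0.05 there, with AG1 at -1.21 ± 0.27 (adjusted p = 0.0533). Differences between 3-prime and 5-prime controls, a sign of RNA quality, were -0.18 to 0.10 in IL-1_4 and -0.30 to 0.23 in M82.

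Among 701 probe sets named by a symbol other than a LOC number, those whose values ran most like RAN2A over the 17 arrays were MTS1 (Pearson r 0.973), opr2 (0.969), ER24 (0.906), ribA (0.862) and gMDH (0.768). MTS1 makes a monoterpene synthase, opr2 an oxophytodienoate reductase, and ER24 was named for its response to ethylene. Each was low in the 3 IL-1_4 arrays: in IL-1_4 minus M82, MTS1 changed by -5.28 ± 0.27, opr2 by -3.71 ± 0.14, ER24 by -2.15 ± 0.23, ribA by -0.53 ± 0.11 and gMDH by -0.46 ± 0.11. Of these, gMDH was not called. With RAN2A falling into 2 clusters of arrays, such an r is set by the gap between IL-1_4 and the rest. Within the 14 other arrays r was 0.501 for MTS1, -0.34 for opr2, 0.026 for ER24, 0.737 for ribA and -0.456 for gMDH. Spearman rho over all 17 arrays was 0.576, 0.208, 0.37, 0.797 and 0.113 in the same order. Of the 5, ribA, a gene of riboflavin synthesis by its symbol, thus ran most like RAN2A once IL-1_4 was set aside. In the same 14 arrays the level of RAN2A had a higher r with RAN2B (0.909) and with the first principal component (0.877). No link particular to ribA is read from its value.

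At the other end, RanBP1 had the lowest r with RAN2A, at -0.718, followed by IMP2 at -0.677 and SP, the SELF-PRUNING gene of shoot determinacy, at -0.613. For RanBP1 the value again rested on IL-1_4, where RanBP1 was 0.11 higher than in M82 and RAN2A was low. Without IL-1_4 its r was 0.196 and with group means removed 0.022. These r values were the basis of the choice and carry no test.

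**Figure D5:**
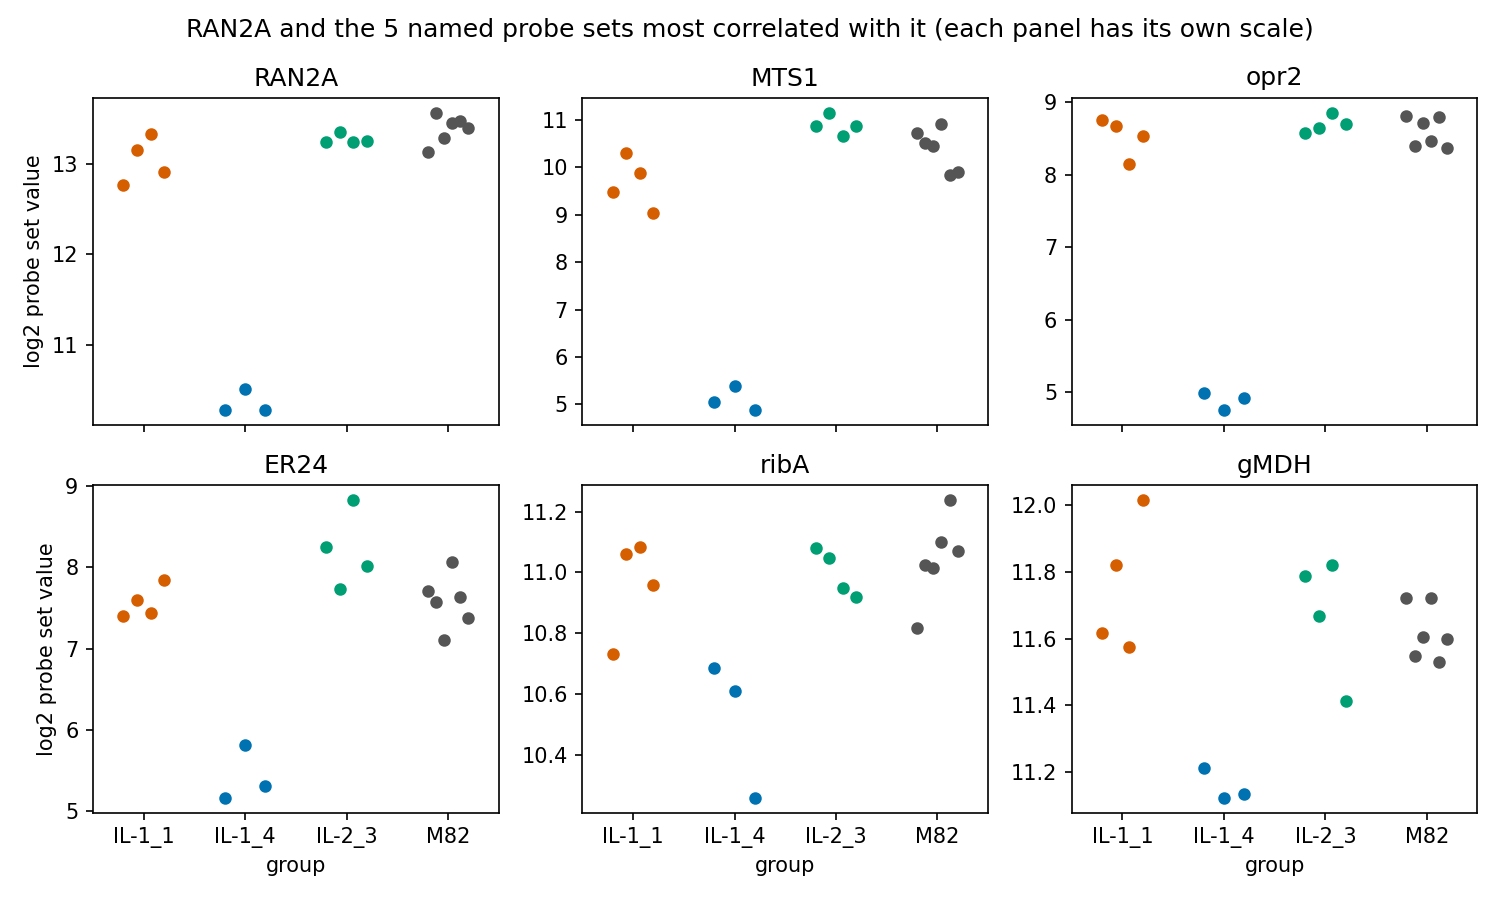
Log2 probe set value (vertical axes, each with its own scale) of RAN2A and of the 5 named probe sets with the highest correlation to it, in each array of IL-1_1, IL-1_4, IL-2_3 and M82 (horizontal axes). In all 6 panels the 3 IL-1_4 arrays lie below every other array, by more than 2 log2 units for RAN2A and by far less for ribA and gMDH.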

How the data were processed

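Carpel RNA of 17 samples was measured on Affymetrix arrays. The authors deposited 1 log2 value per probe set and array, with affy named in the submitters' processing notes. Its version, background correction and summarization were not given in the sources used, and base 2 is inferred from the range of values, 3.31 to 14.75. Array medians were 9.97 to 10.045, so no further scaling was applied, and arrays of 1 group correlated at 0.95 to 0.996. After 108 control probe sets were left out, 10101 were tested in 1 limma fit (limma 3.58.1, R 4.3.3) over all arrays with 1 mean per group and no covariate, two-sided, with Benjamini-Hochberg adjustment over all probe sets of a comparison and calls at 0.05. The number of arrays limits the precision. Names come from an older platform annotation, whose symbols were kept (909 probe sets with 1 symbol, 0 with several, 9192 with none).

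Members, lists and tests were chosen with earlier results of these data known. Named are the Ran probe sets, the called members of each list (or, with none called, the 2 of smallest p), and the 5 probe sets most and 3 least correlated with RAN2A; RanBP1, the markers and ACT and TUB were added to these. For planned tests of RAN2A in comparisons with IL-1_1 or IL-1_4, no p-value is printed, since its values there led to its choice. Its calls in those comparisons are given as a description only. On simulated data with 50 probe sets changed per size among 10101, the fit of IL-1_4 against M82 recovered 36% at a log2 change of 0.5, 86% at 1, 96% at 2 and 100% at 4. Alternatives tried were the 2 groups alone, a block for the replicate number, a filter on dim probe sets, median centring, quantile normalization, array scores on the leading axis of within-group residuals as a covariate, arrays left out singly or together, and the reporter probe sets left out. The last of these, and the 3 arrays left out together, were chosen after seeing the data. Figures used matplotlib 3.10.9.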

Additional observations from a re-analysis of the deposited data

Results flagged for a closer look

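RAN2A in IL-2_3 replicate 2, at 13.35, lay apart from the other 3 arrays of its group, which ran from 13.24 to 13.25; the group's whole range was 0.11. It was 1 of 24 sets of arrays examined in this way, of which chance would pick out about 1 in 20. RAN2A differed between lines by 2.68 in IL-1_1 minus IL-1_4 and by -2.92 in IL-1_4 minus IL-2_3, with no overlap of arrays. Both involve lines whose comparison with M82 led to its choice and are a description. The bright MAF1 probe set, at -0.32 in IL-1_1 minus IL-1_4, was past the threshold of limma.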

How the results depend on the processing

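The RAN2A value of IL-1_4 stayed lower under these settings: with 1 array left out in turn the change ran from -3.108 to -2.992 against M82, from -2.994 to -2.878 against IL-2_3, and from 2.584 to 2.771 in IL-1_1 minus IL-1_4. The axis covariate moved the last of these to 2.875. RAN2A in IL-1_1 minus M82 kept its sign, from -0.447 to -0.26 with arrays left out, and was -0.189 with the axis covariate. Its call there did not hold in every fit, and nothing is read from it. In IL-2_3 minus M82 RAN2A ran from -0.164 to -0.078 and was not called. Residuals of the 21 pairs with the same replicate number in different groups correlated at -0.705 to 0.605 (median 0.0825, 10 over 0.1), against a median of 0.00152 and 28 over 0.1 among 85 pairs with different numbers. The rule used asked every same-number pair to exceed 0.1, and not every pair did, so the main fit did not pair samples. Paired samples could also fail so strict a rule, so whether the numbers pair samples was not settled. With a replicate block RAN2A changed by -0.325 (IL-1_1), -3.012 (IL-1_4) and -0.088 (IL-2_3) against M82.

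RAN2B in comparisons with IL-1_4 changed sign with the array set. With arrays left out singly it ran from -0.197 to 0.047 in IL-1_4 minus M82, from -0.237 to 0.007 in IL-1_1 minus IL-1_4, and from -0.106 to 0.138 in IL-1_4 minus IL-2_3. Without the 2 arrays highest in the 3-prime to 5-prime difference it was 0.067 in IL-1_4 minus M82 and 0.138 in IL-1_4 minus IL-2_3. The axis covariate gave 0.095 in IL-1_1 minus IL-1_4 and 0.012 in IL-1_1 minus IL-2_3. Other uncalled values changed sign too. Rab1C in IL-1_4 gave 0 without those 2 arrays and -0.021 to 0.049 with arrays left out singly. SAR2 in IL-2_3 gave -0.039 with the replicate block and -0.056 to 0.114 with arrays left out singly. RanBP1 in IL-1_1 gave 0.004 without IL-1_1 replicate 1, IL-2_3 replicate 4 and M82 replicate 1. The dim MAF1 probe set in IL-1_4 gave 0.014 with the block, 0.001 without the 2 arrays, and -0.107 to 0.043 singly. The cause was not tested.

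In IL-1_1 minus M82, 1233 probe sets were called. The count was 377 with only those 2 groups, 815 with the replicate block and 548 with the axis covariate. It was 555 without the 2 arrays highest in the 3-prime to 5-prime difference. Without the arrays lowest on the first component within IL-1_1, IL-2_3 and M82, 3 arrays in all, it was 1916. With arrays left out singly it ran from 421 (without IL-1_1 replicate 4) to 3079 (without M82 replicate 1). In IL-1_4 minus M82, 65 became 104 with the axis covariate, and 48 to 68 with arrays left out. In IL-2_3 minus M82, 91 became 60 with only the 2 groups, and 68 to 100 with arrays left out. In IL-1_1 minus IL-1_4, 1776 became 781 with the axis covariate, 950 without the 2 arrays, and 606 to 2163 with arrays left out. In IL-1_1 minus IL-2_3, 492 became 239 with only the 2 groups, 873 without the 3 arrays, and 299 to 834. In IL-1_4 minus IL-2_3, 156 became 238 with the axis covariate, and 111 to 144 with arrays left out.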
